A study of Mus musculus with 20 samples.

Results

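The 31 genes described here make, move, store and export cholesterol, and they were chosen by symbol from a list of cholesterol synthesis, uptake and efflux genes among the 16810 genes measured in microglia after spinal cord injury. Of the listed symbols, 30 stood in the table as written and *Msmo1* stood under its RefSeq synonym *Sc4mol*, so all 31 were found. By role they comprised 18 synthesis enzymes, 5 regulators and carriers of sterols, 5 genes of efflux and the liver X receptors (LXR), and 3 enzymes that esterify or oxidise cholesterol. None of the 31 was left out for low values, since each reached at least 1 CPM (counts per 1e+06 reads of the scaled library) in at least 2 samples. No source used here states the unit of the deposited values, and CPM is an assumption that rests on each column being whole reads times 1 constant.

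The data came from RNA-Seq of eGFP-high cells that were sorted by flow cytometry from a spinal cord segment of 1 cm around a thoracic lesion in adult male CX3CR1+/eGFP mice. In every group, non-injured mice included, 1 allele of the fractalkine receptor gene carries eGFP, and this reporter marks microglia and also blood monocytes. The 7 groups were non-injured mice (NI, n = 3), mice with a lateral hemisection of the cord (HS) at 72 h (n = 3), 1 week (n = 2) and 2 weeks (n = 3), and mice with a full transection (FT) at 72 h, 1 week and 2 weeks (n = 3 each). Cells of several mice were pooled into a sample, so the p-values below measure the spread between pools and not between single animals. Libraries held 3.87 to 34.1 M reads on the 16810 genes of the table, and the fewest reads of any member in any sample was 8, for *Stard4*.

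The 10 microglia marker genes, which included *P2ry12* and *Tmem119*, were present in every sample, with a summed level of 17322 to 35342 CPM. A list of 10 monocyte and macrophage genes summed to 109 to 122 CPM in NI, 114 to 212 at HS 72 h, 131 to 388 at FT 72 h and 43.9 to 115 at the later times, and *Ccr2* and *Ly6c2* were above 0 in every sample. The 8 proliferation genes summed to 41.2 to 44.5 CPM in NI and to 765 to 1416 at 72 h. The 10 astrocyte genes summed to 510.4 to 935 CPM in NI. Their sums were 311 to 333 CPM at HS 1 week, 333 to 475 at FT 1 week, 170.3 to 357 at HS 2 weeks and 191 to 269 at FT 2 weeks. All samples of these 4 injured groups lay below every NI sample. The 10 oligodendrocyte genes, from cells that make cholesterol for myelin, overlapped NI in all 6 injured groups. The 8 neuron genes summed to 44.0 to 78.9 CPM in NI and to at most 41.1 CPM in any injured sample, with *Isl1* at 0 in a sample of HS 2 weeks. The 8 endothelial genes summed to 26.8 to 88.5 CPM over all samples. The 7 neutrophil genes summed to 12.8 to 226 CPM over all samples, with *Mpo* at 0 in at least 1 sample of both groups at 72 h and *Camp* at HS 72 h. The part of these cells in the values of the cholesterol genes was not tested. In bulk samples such as these, fewer cells of a type and less RNA per cell cannot be told apart.

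**Figure D1:**
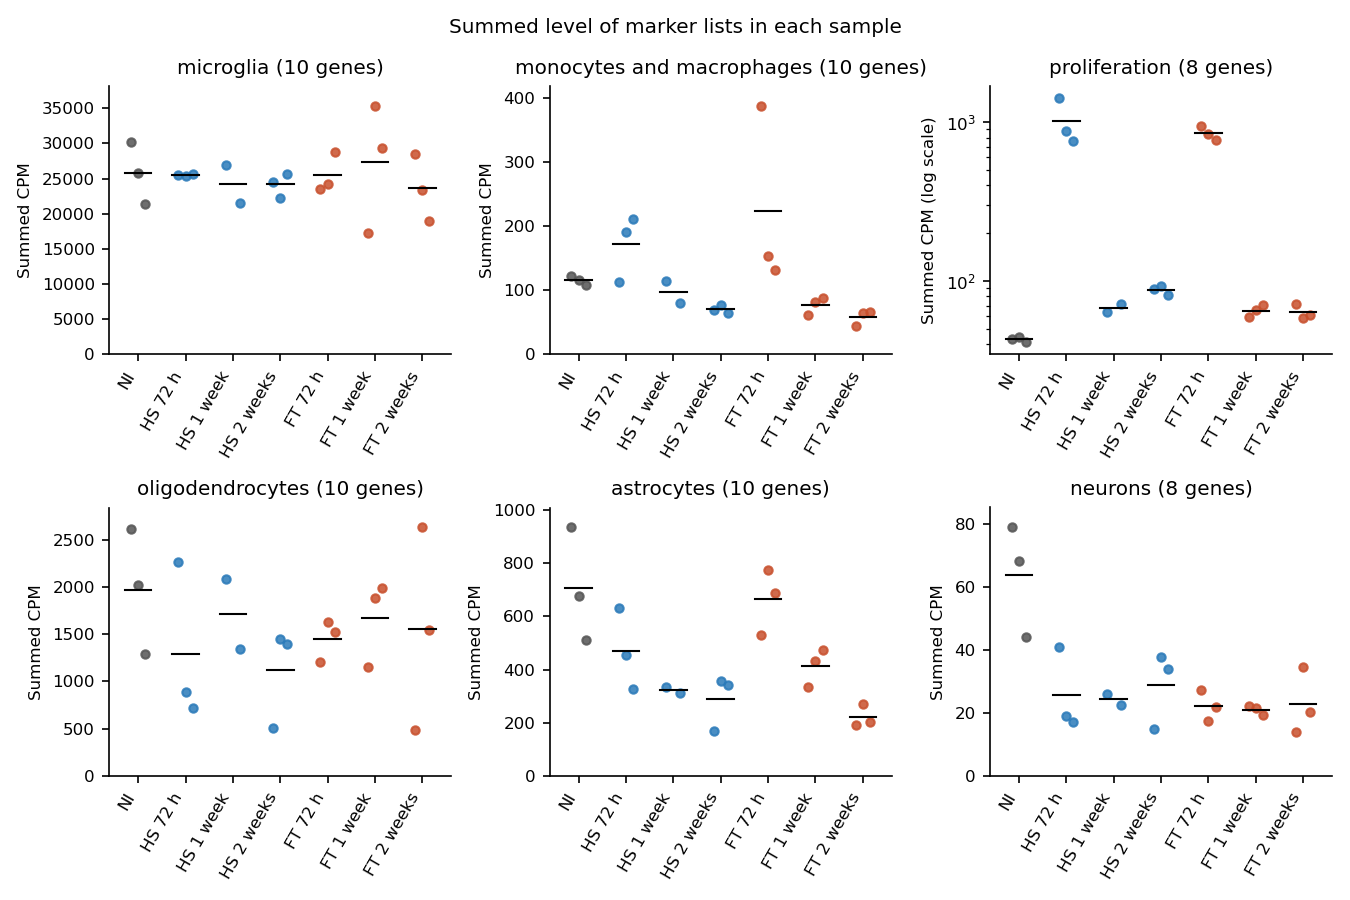
Summed CPM of 6 marker lists in each of the 20 samples, by group, where each point is a sample and each bar the mean of its group (the proliferation list is on a log axis). The microglia sum lies between 17322 and 35342 in all samples, the proliferation sum stands apart at 72 h, and the 4 lowest astrocyte sums are at 2 weeks.

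Cholesterol is built from acetyl-CoA through mevalonate, farnesyl diphosphate, squalene and lanosterol. When membranes hold little cholesterol, SCAP escorts the SREBP factors out of the endoplasmic reticulum, and they switch on the synthesis genes through sterol regulatory elements, often together with NF-Y at CCAAT boxes. When sterols are plentiful, INSIG1 holds SCAP back, and oxysterols bind LXR, which raises the exporters ABCA1 and ABCG1. Phagocytes that take up myelin are loaded with its cholesterol, which they can esterify for storage in droplets or export to apolipoproteins.

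The promoters of 2 synthesis genes that were not called below (*Hmgcs1* and *Mvk*) and of 3 genes that rose (*Abca1*, *Ch25h* and *Soat1*) are shown, because the 2 arms of the pathway are known for different control. RefSeq promoter windows were held for 26 of the 31 members (GRCm38.p6). Each line gives the 250 bases before the RefSeq start, 5′ to 3′ on the gene's strand. Capitals mark a sterol regulatory element (TCACNCCAC) or a CCAAT box (CCAAT), each searched on both strands with no mismatch. For *Ch25h* and *Soat1* the RefSeq start lies inside the GENCODE gene span given below, so the last bases of their lines overlap that span. The windows are those of *Hmgcs1* (chr13:119690101-119690350, plus strand), *Mvk* (chr5:114444019-114444268, plus strand), *Abca1* (chr4:53159896-53160145, minus strand), *Ch25h* (chr19:34475149-34475398, minus strand) and *Soat1* (chr1:156474329-156474578, minus strand).
Hmgcs1: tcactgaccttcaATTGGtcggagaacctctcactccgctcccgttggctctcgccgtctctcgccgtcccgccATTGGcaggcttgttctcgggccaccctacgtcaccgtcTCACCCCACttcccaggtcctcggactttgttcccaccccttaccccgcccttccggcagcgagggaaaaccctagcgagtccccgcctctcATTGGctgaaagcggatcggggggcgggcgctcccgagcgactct
Mvk: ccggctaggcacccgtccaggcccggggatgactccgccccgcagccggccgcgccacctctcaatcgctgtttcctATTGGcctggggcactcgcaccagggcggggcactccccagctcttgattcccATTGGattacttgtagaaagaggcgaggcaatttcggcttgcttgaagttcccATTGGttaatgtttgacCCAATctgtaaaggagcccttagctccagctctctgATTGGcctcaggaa
Abca1: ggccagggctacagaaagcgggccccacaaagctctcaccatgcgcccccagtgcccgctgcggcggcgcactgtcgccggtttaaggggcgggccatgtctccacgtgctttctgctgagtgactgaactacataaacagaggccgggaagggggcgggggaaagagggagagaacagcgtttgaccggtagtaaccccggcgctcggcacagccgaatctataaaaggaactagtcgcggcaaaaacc
Ch25h: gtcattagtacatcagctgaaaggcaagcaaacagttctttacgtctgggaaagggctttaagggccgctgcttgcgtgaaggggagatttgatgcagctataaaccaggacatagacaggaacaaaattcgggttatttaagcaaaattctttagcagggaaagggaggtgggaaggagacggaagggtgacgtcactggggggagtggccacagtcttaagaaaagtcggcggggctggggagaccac
Soat1: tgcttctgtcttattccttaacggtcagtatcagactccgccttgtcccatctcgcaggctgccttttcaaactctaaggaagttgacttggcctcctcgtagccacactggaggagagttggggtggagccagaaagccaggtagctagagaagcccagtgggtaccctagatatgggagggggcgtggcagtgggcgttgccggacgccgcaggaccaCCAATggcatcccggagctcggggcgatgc

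A CCAAT box stood in the window of 14 of 15 synthesis enzymes (93.3%), against 5562 of 13176 genes of the table with a window (42.2%). It also stood in 3 of 4 regulators and carriers of sterols (75%) and in 2 of 3 genes of esterification and oxysterols (66.7%). Of the efflux and LXR genes it stood in 1 of 4 (25%), and *Abcg1* had no window. *Mvk* held 5 CCAAT boxes in the bases shown, *Soat1* held 1, and *Abca1* and *Ch25h* held none. Among members not shown, the synthesis enzyme *Acat2* held none in the same bases, *Mylip* of the efflux and LXR genes held 3 and *Cyp27a1* held 2. The windows shown thus do not stand for all members of each arm. The sterol regulatory element in these exact letters stood in *Hmgcs1* and in no other member with a window, against 182 of 13176 genes (1.38%). Its start lay 137 bases before the start of *Hmgcs1*, and it overlapped none of the 3 CCAAT boxes there. The LXR direct repeat, AGGTCA repeated after a spacer of 4 bases, was found in 0 of 13176 genes. A search for these exact letters thus cannot tell the members from other genes. Looser forms of the repeat were not searched, so its absence from the windows shown carries no result. These shares describe letters in 300-base windows (250 bases before and 50 after the start), not bound sites.

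The study asked how the expression of microglia changes with time and with the severity of the lesion. A gene was called where its change was 2-fold or more and its p, adjusted by Benjamini-Hochberg across the 16810 genes, was under 0.05 (limma, log2 of CPM + 0.5). Against NI, 6 of the 31 members were called in at least 1 of the 6 injured groups and 25 in none. The share of all genes called in at least 1 of these groups was not computed, and shares for each group are given below. *Ch25h* and *Abcg1* rose in all 6 groups, *Abca1* and *Soat1* rose in 5 of 6, *Cyp27a1* fell at FT 72 h and *Idi1* fell at FT 1 week.

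The members called higher numbered 3 at HS 72 h, where 9.08% of all genes were called higher, 3 at HS 1 week (1.7% of all genes), and 4 at HS 2 weeks (2.43%). After FT they numbered 4 at 72 h (8.14%), 4 at 1 week (2.86%) and 4 at 2 weeks (3.53%). No member was called lower after HS, with 4.31% of all genes called lower at 72 h, 0.482% at 1 week and 0.797% at 2 weeks. With FT, 1 member was called lower at 72 h (4.09% of all genes), 1 at 1 week (1.2%) and 0 at 2 weeks (1.36%). With every column of the table scaled to 1 total, 2 members were called higher and 3 lower at HS 72 h (3.68% and 19% of all genes), 3 and 1 at HS 1 week (1.29% and 1.13%) and 2 and 0 at HS 2 weeks (1.45% and 2.58%). For FT that scaling gave 2 and 5 at 72 h (3.69% and 16.3% of all genes), 3 and 5 at 1 week (1.4% and 3.99%) and 3 and 0 at 2 weeks (1.71% and 4.87%). At 72 h the members called lower on that scale were thus a share of the 31 at or below that of all genes. All 6 comparisons share the 3 NI samples.

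**Figure D2:**
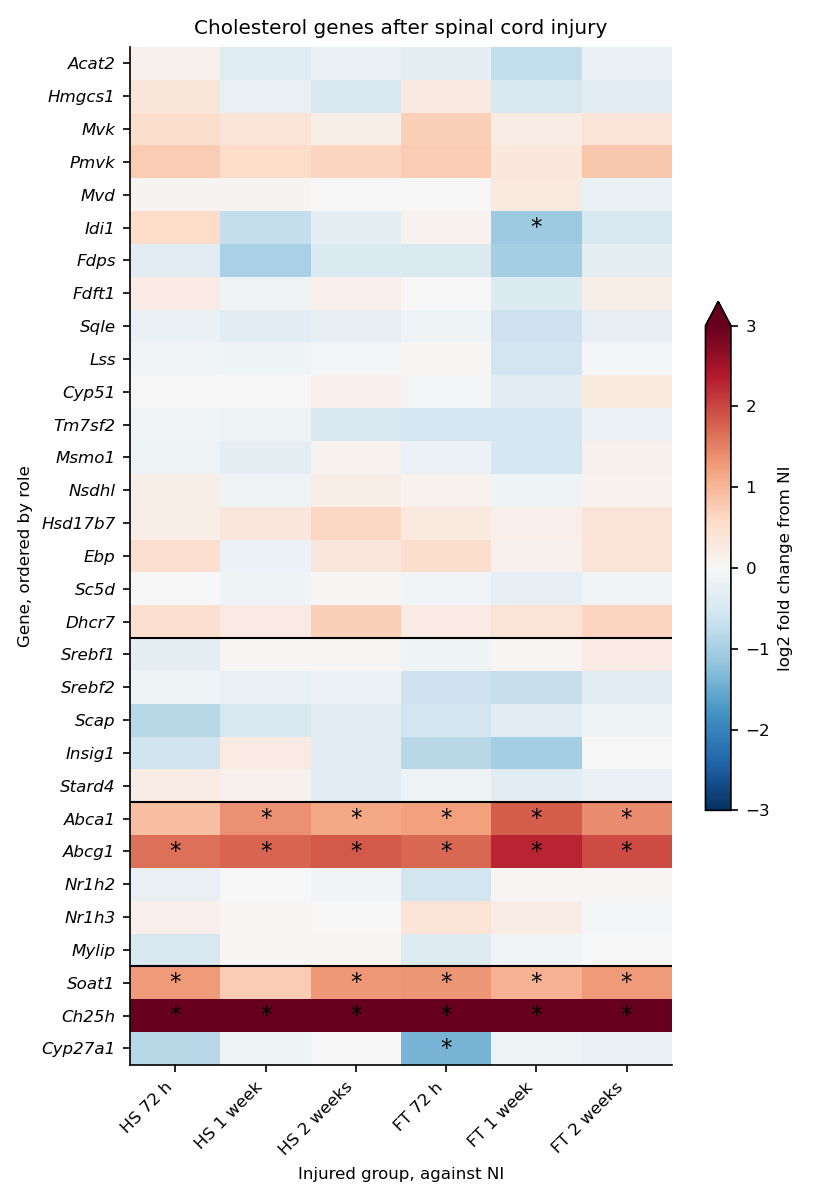
Log2 fold change of each of the 31 members (rows, ordered by role, with lines between the 4 role lists) in each injured group against NI (columns), where an asterisk marks a called gene and the colour scale ends at 3. *Ch25h* and *Abcg1* are called in 6 of 6 columns, and of the 18 synthesis enzymes at the top only *Idi1* is called, in the FT 1 week column.

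*Ch25h* encodes cholesterol 25-hydroxylase, which makes an oxysterol that activates LXR and restrains SREBP processing, and it had the largest change of the members. It is a gene on chromosome 19 (GRCm38, 34473778 to 34475164, minus strand). The 3 NI samples held 6.97, 8.24 and 6.91 CPM. HS samples held 58.6, 138 and 114 CPM at 72 h, then 88.1 and 116 at 1 week and 206, 154 and 142 at 2 weeks. FT samples held 98.8, 91.4 and 95.7 CPM at 72 h, then 68.6, 121 and 143 at 1 week and 267, 161 and 153 at 2 weeks. Every injured sample lay above every NI sample, and the lowest of them, at 58.6 CPM, was in HS 72 h. In order of time, the log2 fold changes from NI (± SE) were 3.64 ± 0.29, 3.70 ± 0.32 and 4.40 ± 0.29 for HS, 3.61 ± 0.29, 3.76 ± 0.29 and 4.58 ± 0.29 for FT, with adjusted p from 4.09e-10 to 1.73e-07. Between 72 h and 2 weeks after FT the level differed by 0.97 on the log2 scale (95% interval 0.38 to 1.57, adjusted p = 0.0476), just under the 2-fold limit.

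*Abcg1*, the transporter that hands cholesterol to lipidated lipoprotein particles, lies on chromosome 17 (31057675 to 31117988, plus strand). It stood at 147, 138 and 108 CPM in NI. The HS samples held 374, 479.5 and 375 CPM at 72 h, then 429 and 451 at 1 week and 499, 474 and 425 at 2 weeks. Levels with FT were 428, 431 and 426 CPM at 72 h, then 444, 722 and 800.4 at 1 week and 613, 468 and 443 at 2 weeks. No injured sample overlapped NI, and replicate 1 of FT 1 week lay well below the other two of its group. In the same order the log2 fold changes were 1.64 ± 0.20, 1.76 ± 0.23 and 1.84 ± 0.20 for HS, 1.72 ± 0.20, 2.29 ± 0.20 and 1.95 ± 0.20 for FT, with adjusted p from 1.46e-07 to 5.32e-05.

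*Abca1*, which loads cholesterol and phospholipid onto lipid-poor apolipoproteins, lies on chromosome 4 (53030787 to 53159895, minus strand). The NI samples held 159.6, 145 and 152 CPM. *Abca1* reached 284, 251 and 324 CPM at 72 h, then 411 and 373 at 1 week and 376, 389.5 and 272 at 2 weeks with HS. With FT it reached 299.5, 388 and 388 CPM at 72 h, then 452, 633 and 545 at 1 week and 484, 360.4 and 389.8 at 2 weeks. All injured samples lay above all NI samples, and the lowest was in HS 72 h. The log2 fold change at HS 72 h was 0.90 ± 0.19 (adjusted p = 0.00105), under the 2-fold limit. The other 5 were 1.36 ± 0.21 at HS 1 week, 1.17 ± 0.19 at HS 2 weeks, 1.22 ± 0.19 at FT 72 h, 1.82 ± 0.19 at FT 1 week and 1.42 ± 0.19 at FT 2 weeks, with adjusted p of at most 0.000383.

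The columns of the deposited table sum to 777426 to 830481 CPM in NI and to 878070 to 1.20219e+06 in the injured samples, so scaling every column to 1 total lowers the fold changes from NI. On that scale the all-gene median was -0.52 at HS 72 h and -0.48 at FT 72 h, in place of -0.11 and -0.09. There *Ch25h* and *Abcg1* were still called in all 6 groups, and *Abca1* lost its call at HS 2 weeks (0.84) and FT 72 h (0.75). *Soat1* lost all 5 of its calls on that scale, with log2 fold changes of 0.71 to 0.97.

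*Soat1*, which esterifies cholesterol for storage in lipid droplets, lies on chromosome 1 (156424525 to 156474331, minus strand). It stood at 99.6, 88.3 and 83.4 CPM in NI. Its level with HS was 223, 213 and 226 CPM at 72 h, then 171 and 138 at 1 week and 217, 276 and 181 at 2 weeks. Its level with FT was 227, 209 and 243 CPM at 72 h, then 125, 235 and 226 at 1 week and 269, 198 and 197 at 2 weeks. Injured and NI samples did not overlap, and the lowest injured sample was replicate 1 of FT 1 week. The log2 fold change was 0.77 ± 0.24 at HS 1 week and missed the threshold (adjusted p = 0.0989). It was 1.29 ± 0.21 at HS 72 h, 1.29 ± 0.21 at HS 2 weeks, 1.32 ± 0.21 at FT 72 h, 1.05 ± 0.21 at FT 1 week and 1.27 ± 0.21 at FT 2 weeks, with adjusted p of at most 0.0029. At FT 1 week the call was also lost when NI replicate 3 (0.998), FT replicate 2 (0.89) or FT replicate 3 (0.92) was left out.

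**Figure D3:**
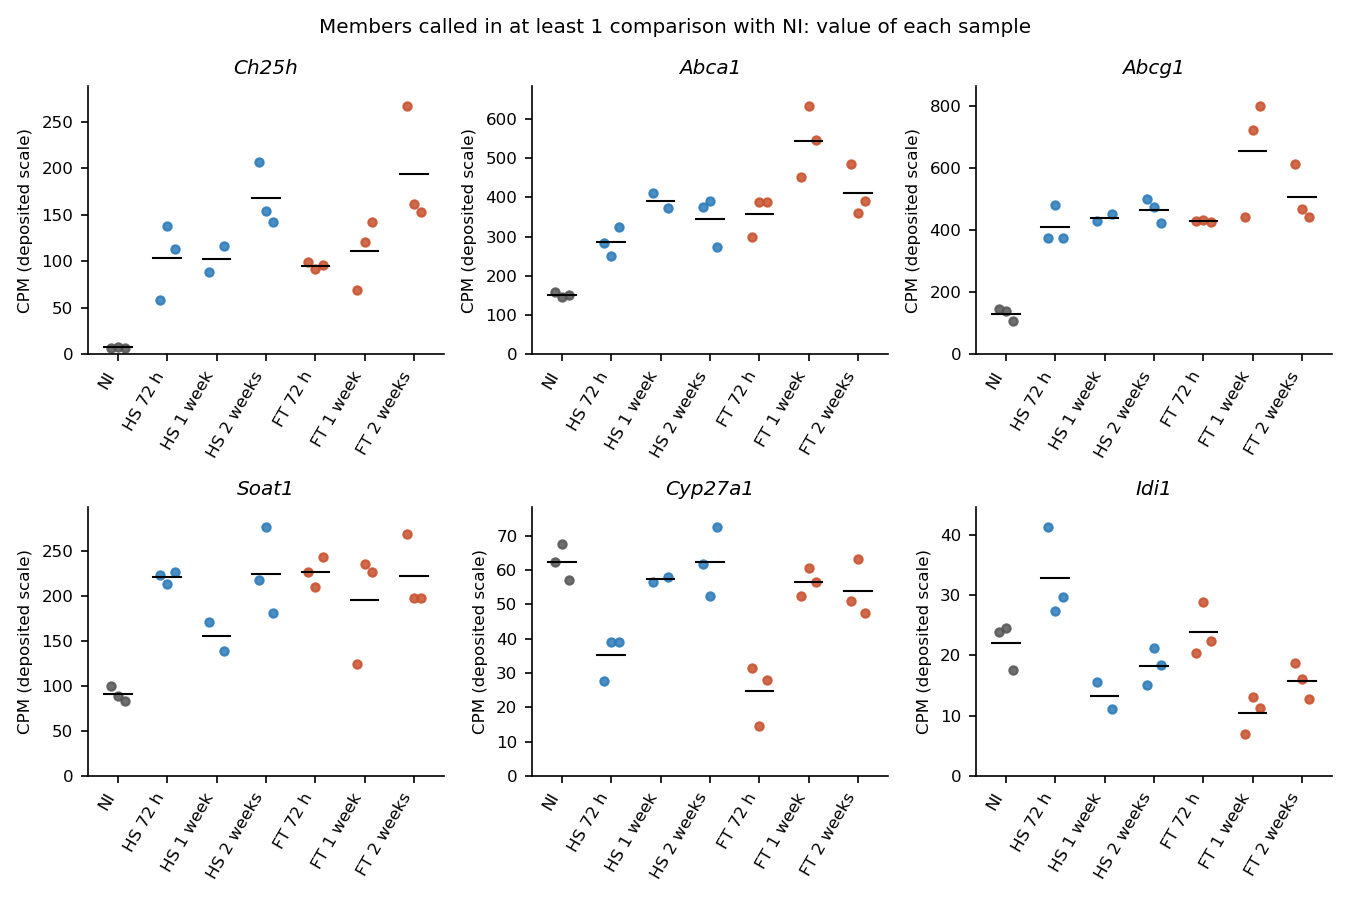
CPM of the 6 members called in at least 1 comparison with NI, in each of the 20 samples, with a bar at the mean of each group (each axis starts at 0). All injured samples lie above all NI samples for *Ch25h*, *Abca1*, *Abcg1* and *Soat1*, *Cyp27a1* is low at 72 h, and *Idi1* is lowest at FT 1 week.

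*Cyp27a1* encodes a mitochondrial sterol hydroxylase that makes another oxysterol, and it moved the other way from *Ch25h*. It lies on chromosome 1 (74713574 to 74737892, plus strand). The NI samples held 62.4, 67.6 and 57.2 CPM. At 72 h the samples held 27.5, 39.1 and 38.95 CPM after HS and 31.6, 14.6 and 27.96 after FT. At 1 week HS samples held 56.5 and 58.1 CPM and FT samples 52.5, 60.5 and 56.5. At 2 weeks HS samples held 61.7, 52.6 and 72.5 CPM and FT samples 50.9, 63.1 and 47.5. All 6 samples at 72 h lay below all samples of NI and of the later times. The fall at FT 72 h was called (-1.39 ± 0.23, adjusted p = 0.000111) and was called under all 17 alternatives tried, and the difference at HS 72 h was -0.83 ± 0.23 (adjusted p = 0.00883), under the 2-fold limit. At the later times the log2 fold changes were -0.22 to -0.01, with 95% intervals that reached no further than -0.69 and 0.46. The proliferation list was high and the monocyte list had its highest medians in those same groups at 72 h, and their part in the fall was not tested.

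The 18 synthesis enzymes showed little of this. Over 6 comparisons they gave 108 pairs of a gene and a comparison, of which 1 was called, and for 83 of 108 the 95% interval of the change lay wholly within 2-fold of NI. The other 25 intervals, that of the called pair among them, reached past 2-fold. In each comparison, 1.7% to 9.08% of all genes were called higher and 0.482% to 4.31% lower. The share of intervals within 2-fold over all genes was not computed, so the 83 of 108 cannot be set beside it. The count of 1 pair was the same with edgeR's quasi-likelihood and likelihood ratio tests, with DESeq2, with another pseudocount and with the low-value filter, and it was 4 pairs, all lower, with every column scaled to 1 total. It was 0 without NI replicate 2 and 3 without NI replicate 3, which added *Fdps* in both groups at 1 week. Without FT 1 week replicate 1 *Fdps* was called in place of *Idi1*. Their median log2 fold change was 0.15 at HS 72 h, -0.13 at HS 1 week, 0.07 at HS 2 weeks, 0.03 at FT 72 h, -0.36 at FT 1 week and 0.03 at FT 2 weeks. Over all 16810 genes the medians were -0.11, 0.02 and -0.01 for the HS groups and -0.09, -0.03 and -0.02 for the FT groups. With every column scaled to 1 total the medians of the enzymes that lay above 0 fell below it. The medians of all genes fell as well, to between -0.52 at HS 72 h and -0.17 at HS 1 week.

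The pathway's first enzymes, *Acat2* (acetoacetyl-CoA thiolase) and *Hmgcs1* (HMG-CoA synthase), had log2 fold changes of -0.75 to 0.12 and of -0.49 to 0.35, and neither was called. *Pmvk* (phosphomevalonate kinase) had positive values in all 6 groups, with an adjusted p under 0.05 at HS 72 h (0.76), FT 72 h (0.76) and FT 2 weeks (0.80), each under 2-fold. *Mvk* (mevalonate kinase) gave 0.18 at HS 2 weeks to 0.71 at FT 72 h, and it was not called either. Both kinases stood on the other side of 0 from *Idi1* and *Fdps* at 1 week. *Mvd*, a further synthesis enzyme, had a mean of 9.69 CPM in NI, 10.3 at HS 1 week and 11.98 at FT 1 week. It was called in no comparison with NI.

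*Idi1* (isopentenyl diphosphate isomerase, chromosome 13, 8885501 to 8892451, plus strand) and *Fdps* (farnesyl diphosphate synthase) carried the largest negative values of the enzymes. *Idi1* has a close paralog, *Idi2*, with which it could share reads. *Idi1* stood at 23.9, 24.6 and 17.6 CPM in NI. In the HS samples it was 41.3, 27.3 and 29.7 CPM at 72 h, then 15.5 and 11.1 at 1 week and 15.1, 21.2 and 18.4 at 2 weeks. In the FT samples it was 20.3, 28.9 and 22.4 CPM at 72 h, then 6.89, 13.1 and 11.2 at 1 week and 18.7, 16.02 and 12.7 at 2 weeks. All 5 samples at 1 week lay below all NI samples. The sums of the astrocyte and neuron lists also lay below NI in those 5 samples, and their part in the *Idi1* values was not tested. The call at FT 1 week (-1.08 ± 0.25, adjusted p = 0.00737) was lost without FT 1 week replicate 1 (-0.82) and without NI replicate 2 (adjusted p = 0.0525). At HS 1 week the value was -0.71 ± 0.27 (adjusted p = 0.222). *Fdps* gave -0.98 ± 0.22 at HS 1 week (adjusted p = 0.0156) and -0.99 ± 0.20 at FT 1 week (adjusted p = 0.00278), both just under the 2-fold limit. It passed that limit at HS 1 week without HS 1 week replicate 2 (-1.24) and at FT 1 week without FT 1 week replicate 1 (-1.06) or 3 (-1.02). It was called in both groups with every column scaled to 1 total (-1.19 and -1.33).

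The enzymes from squalene onward, which were *Fdft1*, *Sqle*, *Lss*, *Cyp51*, *Tm7sf2*, *Msmo1*, *Nsdhl*, *Hsd17b7*, *Ebp*, *Sc5d* and *Dhcr7*, were called in no comparison with NI. *Dhcr7*, the reductase that finishes cholesterol from its dehydro precursor, had the highest value of the 18 enzymes at HS 2 weeks, 0.71 (adjusted p = 0.119). Several of these genes overlap another gene of the table, *Fdft1* with *Ctsb* and *Cyp51* with *Akap9* on the opposite strand and *Tm7sf2* with *Vps51* on the same strand. These overlaps are of whole gene spans, and overlap of exons was not checked. The strandedness of the counting is not stated either, so whether such pairs share reads is not known here.

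One sample stood apart at FT 1 week. The median over the 18 enzymes, relative to the NI mean, was -0.84 in replicate 1 and -0.16 and -0.08 in replicates 2 and 3. Without replicate 1 the median log2 fold change of the enzymes in that group was -0.06, in place of -0.36. The same library had the lowest column total of the injured samples (878070 CPM) and the lowest sum of microglia markers (17322 CPM), and the part of these in the medians was not tested.

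**Figure D4:**
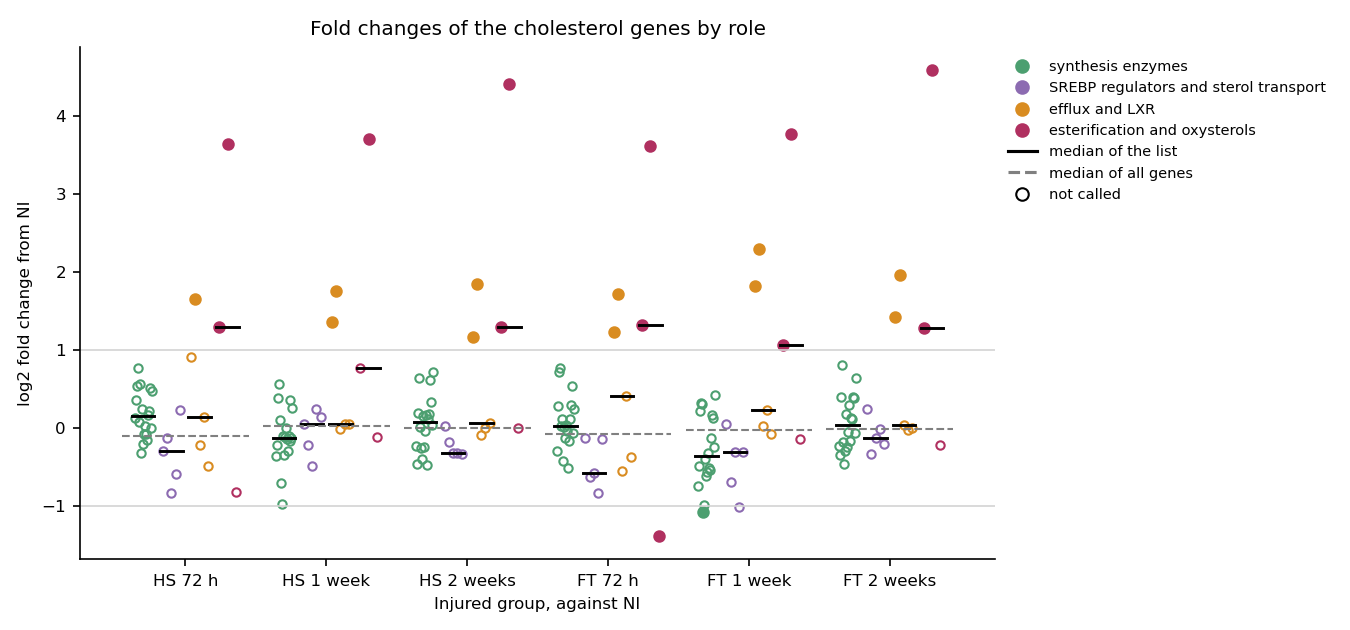
Log2 fold change from NI of the members (points) by role list in each injured group, where filled points were called, solid bars are list medians, dashed lines the median of all 16810 genes and pale lines the 2-fold limit. The synthesis enzymes lie around the dashed line with medians of -0.36 to 0.15, and *Abca1*, *Abcg1*, *Soat1* and *Ch25h* lie above it.

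The synthesis genes can be set beside the efflux and LXR genes. Of the 5 efflux and LXR genes, 1 was called higher at HS 72 h and 2 in each of the other 5 groups, and the 2 were always the exporters. Over all genes 1.7% to 9.08% were called higher in these groups. Of the 18 synthesis enzymes, 0 were called higher in any group (limma, edgeR and DESeq2 alike). An unadjusted p under 0.05 in either direction was reached by 3, 3 and 3 of the 18 in the HS groups in order of time, where 39.3%, 12.8% and 16.1% of all genes reached it, and by 4, 6 and 2 in the FT groups (36.6%, 18.2% and 19.1%). The medians of the 5 genes, from 0.03 at FT 2 weeks to 0.41 at FT 72 h, fell on the 3 genes that were not called and not on the exporters. With every column scaled to 1 total those medians were -0.36 to -0.01, below 0 in all 6 groups, while *Abcg1* stayed called in 6 of 6.

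The nuclear receptors that control the exporters were called in no group, except that *Nr1h2* was called lower at FT 72 h with every column scaled to 1 total (-1.02, adjusted p = 0.00497). *Nr1h2* (LXR-beta) stood at 28.6, 37.3 and 39.1 CPM in NI, at 26.7, 35.9 and 27.1 at HS 72 h, 32.5 and 35.8 at HS 1 week and 35.7, 24.4 and 39.4 at HS 2 weeks. After FT it stood at 32.3, 16.4 and 24.2 CPM at 72 h, then 46.7, 26.5 and 35.6 at 1 week and 34.4, 35.7 and 36.5 at 2 weeks, and its ranges overlapped NI in 6 of 6 groups. Its log2 fold changes ran from -0.56 at FT 72 h (adjusted p = 0.098) to 0.03. *Nr1h3* (LXR-alpha) was low, at 2.26, 4.76 and 3.84 CPM in NI. It stood at 2.97, 3.67 and 5.33 CPM at HS 72 h, 3.27 and 3.97 at HS 1 week and 3.59, 3.21 and 3.62 at HS 2 weeks. After FT it stood at 7.24, 3.51 and 4.27 CPM at 72 h, then 3.78, 4.33 and 4.42 at 1 week and 3.18, 4.53 and 2.67 at 2 weeks, again overlapping NI in every group. The highest of its values, 0.41 at FT 72 h, had a 95% interval of -0.19 to 1.01. *Mylip*, an LXR target whose product marks lipoprotein receptors for degradation, gave values of -0.49 to 0.06 and was not called.

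The regulators of synthesis were called in no group on the deposited scale. Scaled to 1 total per column, *Srebf2* was called lower at FT 72 h (-1.08) and FT 1 week (-1.03), *Insig1* at HS 72 h (-1.096), FT 72 h (-1.297) and FT 1 week (-1.36), and *Scap* at HS 72 h (-1.34) and FT 72 h (-1.05). *Srebf2*, the factor that mainly drives cholesterol synthesis, stood at 12.5, 11.3 and 10.4 CPM in NI. It stood at 12.6, 6.78 and 12.9 CPM at HS 72 h, 12.4 and 7.58 at HS 1 week and 10.1, 9.62 and 10.02 at HS 2 weeks. FT samples lay at 8.11, 4.67 and 9.62 CPM at 72 h, then 6.23, 8.28 and 6.15 at 1 week and 12.1, 8.79 and 6.49 at 2 weeks. Every sample of HS 2 weeks, FT 72 h and FT 1 week lay below all NI samples. The FT log2 fold changes were -0.63 (95% interval -1.22 to -0.04, adjusted p = 0.114) and -0.70 (-1.29 to -0.10, adjusted p = 0.174). In those FT groups 36.6% and 18.2% of all genes had an unadjusted p under 0.05 (limma). The share of all genes that separate from NI in this way was not computed. *Srebf1*, the partner that mainly drives fatty acid synthesis, stood at 19.1, 14.5 and 12.9 CPM in NI. It stood at 12.2, 8.20 and 18.7 CPM at HS 72 h, 15.2 and 16.4 at HS 1 week and 22.6, 8.55 and 19.3 at HS 2 weeks. FT samples lay at 16.97, 9.64 and 16.5 CPM at 72 h, then 22.8, 14.2 and 12.2 at 1 week and 21.4, 17.5 and 15.96 at 2 weeks, and all 6 groups overlapped NI. *Srebf1* overlaps *Rai1* on the opposite strand.

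*Scap*, the SREBP escort, gave -0.84 ± 0.26 at HS 72 h (adjusted p = 0.0211), under the 2-fold limit. *Stard4*, a cytosolic sterol carrier, gave -0.34 to 0.22. *Insig1*, the SCAP anchor and itself an SREBP target, had the widest spread, and it is given by sample because of that, a choice made after its values were seen. It stood at 53.6, 53.3 and 39.6 CPM in NI, 35.2, 24.7 and 37.3 at HS 72 h and 28.2, 28.6 and 24.2 at FT 72 h. At HS 1 week it held 63.5 and 51.4 CPM, at HS 2 weeks 26.2, 57.5 and 37.3 and at FT 2 weeks 30.9, 71.3 and 49.6. All 6 samples at 72 h lay below NI, and the other groups reached into or above its range. *Insig1* was not called at 72 h on the deposited scale, and the share of all genes separating like this was not computed. At FT 1 week it stood at 57.3, 16.6 and 13.7 CPM, so replicate 1 lay above NI and the other two far below it. The log2 fold change there was -1.02 ± 0.39 (adjusted p = 0.132), and without replicate 1 it was -1.65 (adjusted p = 0.00112).

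Lesion severity was tested directly at each time. No member was called between FT and HS at 72 h, 1 week or 2 weeks, where 0% of all genes were called, and 1, 3 and 0 of the 31 members had an unadjusted p under 0.05 (limma). Over all genes 505, 724 and 438 had one, and no member was called by edgeR's 2 tests or DESeq2, which called 0, 8 and 1 (likelihood ratio), 0, 0 and 0 (quasi-likelihood) and 0, 7 and 1 (DESeq2) of all genes. The FT minus HS difference of *Abca1* was 0.32 at 72 h (95% interval -0.07 to 0.71), 0.46 at 1 week (0.03 to 0.89) and 0.26 at 2 weeks (-0.13 to 0.64). That of *Abcg1* was 0.07 (-0.35 to 0.50), 0.53 (0.05 to 1.01) and 0.11 (-0.31 to 0.54). *Ch25h* differed by -0.03 (-0.62 to 0.57), 0.06 (-0.60 to 0.73) and 0.18 (-0.41 to 0.78). The smallest unadjusted p was 0.00824, for *Insig1* at 1 week (-1.26). These intervals leave room for moderate differences, and they do not show that the lesions act alike.

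Time after the same lesion separated *Idi1* and *Cyp27a1*. *Idi1* was lower at 1 week than at 72 h after HS (-1.27 ± 0.27, adjusted p = 0.00509), where 6.03% of all genes were called, and after FT (-1.19 ± 0.25, adjusted p = 0.00427), where 3.44% were called. *Cyp27a1* was higher at 1 week than at 72 h after FT (1.25 ± 0.23, adjusted p = 0.00125) and at 2 weeks than at 72 h (1.17 ± 0.23, adjusted p = 0.00212, 3.81% of all genes called). No member was called between 2 weeks and 72 h after HS (4.74% of all genes), where the difference was 0.82 for *Cyp27a1* and -0.82 for *Idi1*. No member was called between 2 weeks and 1 week after HS (0.0119%) or FT (0.0714%). The *Idi1* call after HS was lost without HS 1 week replicate 2 (-1.03) and with every column scaled to 1 total (-0.98). The *Idi1* call after FT was lost without FT 1 week replicate 1 (-0.94) and with only the samples of the 2 groups (adjusted p = 0.0584), and the *Cyp27a1* calls without FT 72 h replicate 2 (0.91 and 0.84).

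A further 42 genes of the pathway, none of them a member, were read from lists on other synthesis steps, uptake and lysosomal egress, acceptors and LXR partners, the fatty acid arm of SREBP1 and other oxysterol enzymes. They gave 8, 6 and 7 called higher and 1 called lower each in the HS groups in order of time, and 8 called higher each with 1, 1 and 2 called lower in the FT groups. The shares of all genes called higher were 9.08%, 1.7% and 2.43% for HS and 8.14%, 2.86% and 3.53% for FT. Those called lower were 4.31%, 0.482% and 0.797% for HS and 4.09%, 1.2% and 1.36% for FT. With every column scaled to 1 total they gave 3 higher and 10 lower at HS 72 h, 6 and 1 at HS 1 week, 4 and 3 at HS 2 weeks, 5 and 6 at FT 72 h, 5 and 3 at FT 1 week and 5 and 4 at FT 2 weeks. On that scale 3.68%, 1.29% and 1.45% of all genes were called higher in the HS groups and 3.69%, 1.4% and 1.71% in the FT groups. The shares called lower were 19%, 1.13% and 2.58% for HS and 16.3%, 3.99% and 4.87% for FT. Of the 9 genes of other efflux, acceptors and LXR partners, the same number, 4, was called higher in each of the 6 groups, and these were *Apoc1*, *Apoe*, *Nceh1* and *Plin2*. *Apoc1*, a small apolipoprotein, rose from 2.31 CPM in NI to 38.99 at HS 72 h and 150.04 at FT 1 week, with log2 fold changes of 3.80 to 5.71. *Apoe*, the main lipoprotein acceptor of the central nervous system, rose by 2.14 to 4.48 on the log2 scale (adjusted p = 0.0455 at HS 72 h). Its NI samples held 508, 939 and 283 CPM and those of HS 72 h 2384, 927 and 5265, so replicate 2 of HS 72 h lay within the NI range.

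*Plin2*, a coat protein of lipid droplets, rose in all 6 groups by 1.63 to 2.40. *Nceh1*, which hydrolyses cholesterol esters and so works against *Soat1*, rose in all 6 by 1.62 to 2.21. Of the 12 genes of uptake and lysosomal egress, 1 to 3 per group were called higher and 0 lower. The lysosomal genes *Lipa* (acid lipase) and *Npc2* (sterol carrier) were called higher in 5 of 6 groups each, at 1.10 to 1.24 and 1.06 to 1.504 where called. *Gramd1b*, which carries sterol from the plasma membrane inward, was called in 4 of 6, at 1.02 to 1.66. With every column scaled to 1 total *Lipa* was called in no group, *Npc2* at FT 2 weeks and *Gramd1b* at 1 week, and *Apoe* lost its call at HS 72 h.

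Of the fatty acid arm, *Scd1* (a desaturase) was called lower at HS 2 weeks (-1.69) and FT 2 weeks (-1.61), and *Acaca* (acetyl-CoA carboxylase) was called higher in 4 of 6 groups (1.07 to 1.34). Of the other oxysterol enzymes, *Cyp46a1*, best known from neurons, rose at HS 72 h (1.33) and FT 72 h (1.47), and *Cyp39a1* rose at FT 72 h (1.18). Scaling every column to 1 total left *Acaca* called at HS 1 week alone of the 6 groups, while *Cyp46a1* lost its call at HS 72 h and *Cyp39a1* lost its call at FT 72 h.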

How the data were processed

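RNA-Seq of sorted microglia from 20 samples was analysed from 1 table of 16810 genes. The deposited signal values were made by the authors: reads were mapped with TopHat2 2.0.9 to mm10, counted with HTSeq 0.5.4p3 and normalized by library size with edgeR 3.3.6. The unit is not given in the sources used here and was taken to be CPM (counts per 1e+06 reads of the scaled library). All 336200 values were whole multiples of 1 read within 0.001 of that step (100%), so reads were recovered for count tests. Depth was 3.87 to 34.1 M reads per sample.

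Log2 of the CPM + 0.5 was fitted with limma 3.58.1 (R 4.3.3, intensity trend, 1 mean per group, all 20 samples), with Benjamini-Hochberg adjustment over all genes. Fold changes are on this scale and understate the change of low genes. The 15 comparisons were the 6 injured groups against NI, FT against HS and the times. Alternatives were a pseudocount of 0.1 or 1, at least 1 CPM in at least 2 samples (16122 genes), only the groups compared, median-of-ratios scaling, every column scaled to 1 total, no fold limit, a replicate block, count tests on the recovered reads (edgeR 4.0.16, DESeq2 1.42.0) and dropping each sample in turn. Coordinates are from GENCODE vM21 and promoters from RefSeq.

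Members and lists were chosen with earlier results of these data known. All members could be named, with values by sample for those called against NI and for *Srebf1*, *Srebf2*, *Nr1h2* and *Nr1h3*. Other pathway genes were named if called against NI. No batch is named by the labels. *Ly6g* was not analysed here. The values of 1 other pathway gene, which is in the counts of its list, are not reported here.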

Additional observations from a re-analysis of the deposited data

Results flagged for a closer look

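Members whose level differed between times after the same lesion are given here. *Idi1* was lower at 1 week than at 72 h by a log2 fold change of -1.27 after HS and -1.19 after FT, and all 5 samples at 1 week lay below all 6 at 72 h. *Cyp27a1* was higher than at 72 h by 1.25 at 1 week and 1.17 at 2 weeks after FT, again without overlap. The *Idi1* difference after HS was under 2-fold with every column scaled to 1 total (-0.98), and that after FT had an adjusted p of 0.0584 with only the samples of the 2 groups (limma). Groups of 2 or 3 samples were not tested for a single outlying sample.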

How the results depend on the processing

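Over the 31 members and 15 comparisons, 5077 values under the alternatives that keep every sample kept their side of the threshold. A further 29 passed the threshold that had not, and 9 no longer passed it. None that was called in either fit changed direction, and the direction of values called in neither was not tracked. Values called in neither fit are among those that kept their side, and the setting with no fold limit can only add calls. The tally alone thus does not measure how firm the calls are. With every column scaled to 1 total the members called were 5 at HS 72 h (2 higher and 3 lower, in place of 3 and 0), 2 at HS 2 weeks, 7 at FT 72 h (2 higher and 5 lower, in place of 4 and 1), 8 at FT 1 week (3 higher and 5 lower, in place of 4 and 1), 1 between 2 weeks and 72 h after HS and 2 between 2 weeks and 72 h after FT. On that scale 19% of all genes were called lower at HS 72 h, 16.3% at FT 72 h and 3.99% at FT 1 week. Between 1 week and 72 h after HS that scaling called *Cyp27a1* higher in place of *Idi1* lower. With no fold limit 7 members were called at HS 72 h, where 2756 of 16810 genes were called higher and 1829 lower. That setting called 2 members between 2 weeks and 72 h after HS (570 of all genes higher and 1148 lower). It also called 2 between 2 weeks and 72 h after FT (338 of all genes higher and 633 lower). The comparison of 2 weeks with 72 h after FT also gave 2 with edgeR's quasi-likelihood and likelihood ratio tests and with DESeq2, which called *Ch25h* beside *Cyp27a1*. With only the samples of the 2 groups, 1 member was called between 1 week and 72 h after FT. The cause of these moves was not tested beyond the scaling itself.

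With each sample left out in turn, the counts ran from 3 to 3 at HS 72 h, 3 to 4 at HS 1 week, 4 to 4 at HS 2 weeks, 5 to 5 at FT 72 h, 4 to 6 at FT 1 week and 4 to 4 at FT 2 weeks, and stayed at 0 between lesions. Between times they ran from 0 to 1 for HS 1 week (0 without HS 1 week replicate 2), 0 to 1 for HS 2 weeks (1 without HS 72 h replicate 3 or without HS 2 weeks replicate 2, *Hmgcs1* in both), 1 to 2 for FT 1 week (1 without FT 72 h replicate 2 or FT 1 week replicate 1) and 0 to 1 for FT 2 weeks (0 without FT 72 h replicate 2), each against 72 h, and 0 to 1 for FT 2 weeks against 1 week (1, *Insig1*, without FT 1 week replicate 1). Where a sample of HS 1 week was left out, the lone sample was assumed to vary like the other groups. With the replicate number as a block, the counts stayed at 3, 3 and 4 for HS and at 5, 5 and 4 for FT. The labels do not say that a number marks a shared batch. The deviations of same-numbered samples correlated at -0.39 to 0.38 (20 of 57 pairs over 0.1). Those of other-numbered samples correlated at -0.40 to 0.39 (39 of 114 pairs over 0.1). The block and the pairing thus rest on a number only. Against NI the widest 95% intervals of the members were those of *Insig1* (± 0.896 at HS 1 week) and then *Stard4*, the member with the fewest reads (± 0.803).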

Other observations

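Among the 42 pathway genes that are not members, *Apoc1* and *Cyp39a1* were the ones called between times. *Apoc1* was higher than at 72 h by 1.41 ± 0.21 at 2 weeks after HS (adjusted p = 8.79e-05) and by 1.61 ± 0.21 at 1 week and 1.499 ± 0.21 at 2 weeks after FT. At HS 1 week its difference from 72 h was 0.78 ± 0.23 (adjusted p = 0.0361), under the 2-fold limit. *Cyp39a1* was lower at 2 weeks than at 72 h after FT (-1.41 ± 0.37, adjusted p = 0.0238).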
